A study of Mus musculus with 3 samples.

Results

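The collagen genes were followed in spatial transcriptomes of the mouse thymus. Every gene whose symbol consists of Col, a number, the letter a and a number was taken, which gave 44 of the 54838 genes in the deposited lists (the rule is one of names, and the family was picked with earlier results of these data known). The study set mice without the tumour suppressor p53 beside wild-type mice, and its spatial data comprise 1 thymus section from each of 3 mice. The sections labelled KO1134 and KO1308 come from *Trp53*-/- mice aged 17 and 21 weeks, and the section labelled WT1101 comes from a *Trp53*+/+ mouse aged 17 weeks. All 3 mice were female C57BL/6 animals that were perfused with cold PBS under pentobarbital, and the thymus was frozen in OCT compound. Per the methods, a KO line and WT mice from different suppliers were crossed to breed KO and WT animals of the same generation, and whether these 3 mice are littermates is not given in the sources used here. KO tissue was permeabilised for longer than WT tissue, so that step and the genotype cannot be told apart. The depth that the study lists under the name KO1308 is closer to that of the section labelled KO1134, so which KO section came from which mouse, and with it the age of each, rests on the labels and was not settled. *Trp53* is inactive throughout the KO animal and not in a chosen cell type.

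Collagens are trimeric proteins of the extracellular matrix. Fibrillar collagens, such as types I, III and V, assemble into the fibres of capsules and septa, whereas type IV collagen forms the sheet-like network of basement membranes under endothelium and epithelium and around fat cells. In the thymus, fibroblasts of the capsule and of the connective tissue around vessels are the best known source of the fibrillar types, and the many vessels of the organ are wrapped in type IV collagen.

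A unique molecular identifier (UMI) marks each captured transcript, so that copies made in amplification count as 1. The slides carry barcoded spots at a spacing of 4.8 µm, which were pooled into squares of 27 µm called bins. Over tissue, 12018 bins were kept in KO1134, 15973 in KO1308 and 27096 in WT1101, each with at least 300 detected genes. They hold 31122349, 17497703 and 40573646 UMIs, which is a mean of 2590, 1095 and 1497 UMIs per bin. Levels are given as counts per 1000000 UMIs (CPM) summed over bins, with 95% intervals that cover counting error only. Bins of 1 section are not replicates and there is 1 WT section, so no test between genotypes was made, and both KO sections were set beside the same WT section. *Trp53* itself was counted at 17.0 CPM in KO1134, 25.1 CPM in KO1308 and 80.0 CPM in WT1101, in the direction of the labels.

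Bins were divided by genes other than collagens. The thymus compartment carried thymocyte and cortical epithelial genes and held 6958, 10189 and 22988 bins of KO1134, KO1308 and WT1101. The rim, which is the outermost 54 µm of the tissue, held 914, 2846 and 1732 bins. Fat, defined by adipocyte genes, held 1976 bins of KO1134 and 1237 of KO1308, and a B-cell zone held 1524 and 427. WT1101 had 2 bins of fat and 0 of the B-cell zone, so that these compartments were measured in the KO sections alone. The remaining bins, in which the thymus genes stayed below a cutoff for the thymus compartment, were kept as other tissue. B-cell genes summed to 134 CPM in other tissue of KO1134, 256 CPM in KO1308 and 79.1 CPM in WT1101. In the thymus compartment they summed to 88.3, 96.6 and 40.9 CPM, so other tissue was not poor in every list. The 6 thymus genes of this division (*Themis*, *Arpp21*, *Ptcra*, *Cd8b1*, *Prss16* and *Psmb11*) summed to 645 CPM in KO1134, 1428 CPM in KO1308 and 2082 CPM in WT1101. In the same order, they summed to 783, 1707 and 2171 CPM in the thymus compartment and to 219, 510 and 593 CPM in other tissue. The cutoff followed the level of each section, so these compartments need not hold like tissue across sections. The 4 thymocyte genes were lower in both KO sections, such as *Cd8b1* at 77.6, 500.1 and 1117 CPM, whereas the cortical epithelial genes *Prss16* and *Psmb11* were at 0.996 and 1.57 and at 1.08 and 1.16 times WT. In sums over tissue, a change in the number of cells of a type and a change in RNA per cell cannot be told apart.

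As a family, the collagens made up a larger share of the UMIs in both KO sections than in the WT section. All 44 genes together were counted at 508 CPM in KO1134, 605 CPM in KO1308 and 305 CPM in WT1101, which is 1.66 and 1.98 times the WT level. Among thymus bins the values were 437, 527 and 251 CPM, with ratios of 1.74 and 2.10, so the difference was present where fat and the B-cell zone were left out. Of the 44 genes, 30 had at least 100 UMIs over the 3 sections and are described by name, and the other 14 had 14 to 91 UMIs.

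Gene by gene, 41 collagens had the 30 UMIs that were asked of any gene for a ratio. Of these, 34 (82.9%) lay above WT in both KO sections, against 45.0% of the 20825 genes counted in the same way. A ratio of at least 2 in both KO sections was seen for 11 collagens (26.8%), against 12.8% of all genes. They were *Col4a1*, *Col5a1*, *Col5a3*, *Col6a1*, *Col6a2*, *Col6a3*, *Col6a4*, *Col6a5*, *Col8a1*, *Col9a1* and *Col9a2*. A ratio of 0.5 or less in both was seen for 1 collagen, *Col19a1*, against 2.25% of all genes. The median ratio of the 41 collagens was 1.67 in KO1134 and 2.09 in KO1308, where the median over all genes was 1.05 and 1.19.

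**Figure D1:**
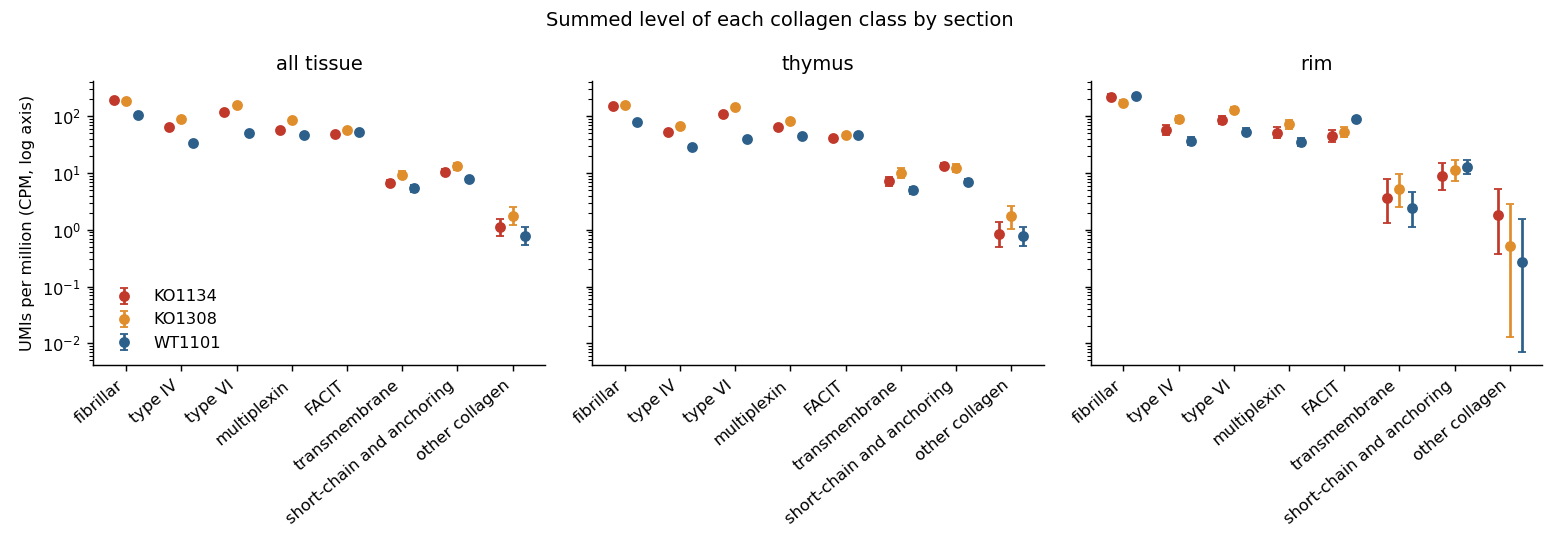
Summed CPM of each collagen class (log axis) in all kept tissue, the thymus compartment and the rim, for KO1134, KO1308 and WT1101; points are sums over bins and bars are 95% counting intervals. In the thymus, fibrillar, type IV and type VI collagens lie above WT1101 in both KO sections (fibrillar 150 and 160 against 78.8 CPM), whereas in the rim the fibrillar level of WT1101 (232 CPM) is the highest of the 3.

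The fibrillar collagens, 11 genes, summed to 197 CPM in KO1134, 187 CPM in KO1308 and 105 CPM in WT1101. The ratio to WT was 1.87 (95% interval 1.79 to 1.94) in KO1134 and 1.77 (1.69 to 1.85) in KO1308, with a mean of 1.82 ± 0.0671 (SD, n = 2). Both KO sections therefore stood above the WT section by a similar factor, far outside counting error. The sums in the thymus were 150, 160 and 78.8 CPM, with ratios of 1.90 and 2.03.

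Type I collagen, the main protein of tissue fibres, is built from the chains of *Col1a1* and *Col1a2*. *Col1a1* was counted at 27.2 CPM in KO1134, 24.2 CPM in KO1308 and 12.6 CPM in WT1101. *Col1a2* was counted at 66.8, 47.6 and 31.1 CPM in the same order. The WT value was the lowest of the 3 for both chains. The number of *Col1a1* UMIs per *Col1a2* UMI was 0.407 in KO1134 and 0.406 in WT1101, and 0.508 (0.451 to 0.572) in KO1308. *Col3a1*, which encodes the type III collagen of reticular and vessel-wall fibres, was counted at 53.1 CPM in KO1134, 36.1 CPM in KO1308 and 26.7 CPM in WT1101. Its ratio to WT was 1.99 (1.84 to 2.15) in KO1134 and 1.35 (1.22 to 1.49) in KO1308, so the KO sections differed from each other beyond counting error.

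The start regions of these genes are shown because *Col1a2* and *Col3a1* followed *Col1a1* most closely of 14402 genes across the sections and compartments. Pearson's r of log2(CPM + 1) with *Col1a1* was 0.922 for *Col3a1* and 0.893 for *Col1a2* over 13 section and compartment values, which share libraries and are given as a description. The next genes were *Gm32569*, *Dpt*, a matrix protein that binds decorin, and *Thbd*, the thrombomodulin of endothelium, with r of 0.806, 0.802 and 0.789. *Gm32569*, annotated as an antisense gene, had 513, 317 and 291 UMIs in KO1134, KO1308 and WT1101, where *Dpt* had 518, 297 and 235. Whether reads of one of these were counted for the other was not tested, so they may not be separate observations. The 250 bases before the RefSeq start (build GRCm38.p6) run 5′ to 3′ along the gene, with capitals marking a CCAAT box (CCAAT), a GC box (GGGCGG) or a TATA box (TATAAA) on either strand. *Col1a2* lies at chr6:4505368-4505617 and *Col3a1* at chr1:45311288-45311537, both on the plus strand. *Col1a1* had no entry.
Col1a2: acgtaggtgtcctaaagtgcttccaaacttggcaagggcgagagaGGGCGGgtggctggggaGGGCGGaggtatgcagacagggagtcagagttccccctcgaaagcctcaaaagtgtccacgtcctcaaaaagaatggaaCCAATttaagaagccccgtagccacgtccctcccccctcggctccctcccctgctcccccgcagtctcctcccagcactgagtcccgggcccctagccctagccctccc
Col3a1: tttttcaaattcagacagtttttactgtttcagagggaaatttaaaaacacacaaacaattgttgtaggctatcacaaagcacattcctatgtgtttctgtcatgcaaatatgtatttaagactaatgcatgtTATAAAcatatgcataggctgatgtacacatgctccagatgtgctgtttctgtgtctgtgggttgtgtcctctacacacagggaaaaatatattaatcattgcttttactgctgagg

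The *Col1a2* window held 1 CCAAT box and 2 GC boxes, and the *Col3a1* window held 1 TATA box whose first base lies 117 bases before the start. Of the 32851 windows of all genes, 33.8% held a CCAAT box, 32.7% a GC box and 12.4% a TATA box. Of 38 windows of the 35 collagen genes with an entry, 13 held a CCAAT box, 22 a GC box and 5 a TATA box. Such a match only describes the letters.

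Type V collagen, which is built into type I fibres and sets their width, was also higher in both KO sections. *Col5a1* was counted at 10.2 CPM in KO1134, 11.6 CPM in KO1308 and 4.88 CPM in WT1101. *Col5a2* was counted at 15.9, 17.1 and 9.27 CPM. *Col5a3* stood out among the fibrillar genes with 6.81, 11.3 and 2.29 CPM, which is 2.97 (2.32 to 3.83) and 4.94 (3.84 to 6.39) times WT. Restricted to the thymus, the *Col5a3* ratio was 2.90 in KO1134 and 6.74 in KO1308, from 92 and 124 UMIs against 55 in WT1101.

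The other fibrillar genes did not share this pattern. *Col27a1*, a fibrillar collagen known from cartilage, was counted at 9.96 CPM in KO1134, 28.1 CPM in KO1308 and 9.61 CPM in WT1101. KO1134 was thus at 1.04 (0.890 to 1.21) times WT and KO1308 at 2.93 (2.56 to 3.35), so that 1 KO section carried the difference. *Col11a2* was counted at 5.30, 7.94 and 7.20 CPM, with ratios of 0.737 and 1.10. Without *Col1a1*, *Col1a2* and *Col3a1*, the fibrillar sum was 1.42 times WT in KO1134 and 2.26 times WT in KO1308.

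Type IV collagen showed the larger mean ratio. The 6 genes summed to 64.4 CPM in KO1134, 90.5 CPM in KO1308 and 33.5 CPM in WT1101. The ratio was 1.92 (1.79 to 2.06) and 2.70 (2.51 to 2.91), with a mean of 2.31 ± 0.551 (SD, n = 2), and the KO sections differed from each other. Thymus sums were 52.5, 67.2 and 29.1 CPM, with ratios of 1.80 and 2.31.

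Most type IV UMIs came from *Col4a1* and *Col4a2*, whose chains form the common network of nearly all basement membranes. *Col4a1* was counted at 29.3 CPM in KO1134, 34.8 CPM in KO1308 and 13.6 CPM in WT1101. *Col4a2* was counted at 30.3, 46.1 and 16.9 CPM. Neither KO section overlapped WT for either gene. *Col4a5*, whose chain is added in some epithelial basement membranes, was counted at 2.25, 3.83 and 1.21 CPM from 186 UMIs in all, and *Col4a6* at 1.83, 2.57 and 1.11 CPM from 147 UMIs. In the thymus compartment alone *Col4a6* was at 1.46 and 1.03 times WT, and both intervals included 1. *Col4a3* and *Col4a4* had 14 and 91 UMIs.

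*Col4a1* and *Col4a2* start head to head, so that the same short stretch begins both genes, on opposite strands. The 22 bases at chr8:11312805-11312826 (GRCm38.p6, plus strand), from the RefSeq start of *Col4a2* to that of *Col4a1*, are shown for that reason, with a GC box in capitals.
Col4a1 and Col4a2: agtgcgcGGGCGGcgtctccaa

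Across the 13 section and compartment values, r with *Col4a1* was 0.958 for *Col4a2*, the second of 14402 genes. The first was *Gm15418* with 0.962, an antisense gene on chromosome 8 whose annotated span overlaps the end of *Col4a1*. *Gm15418* had 915, 572 and 587 UMIs in KO1134, KO1308 and WT1101, where *Col4a1* had 912, 609 and 552. The annotated exons of *Gm15418* and *Col4a1* do not overlap. How strand was used in counting is not given in the sources used here, and whether reads of one gene were counted for the other was not tested. *Gpx3*, *Ctsf* and *Pxdn*, the peroxidase that cross-links type IV collagen, followed with r of 0.953, 0.952 and 0.949.

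The multiplexins *Col15a1* and *Col18a1* encode collagens that link basement membranes to the matrix around them, and their KO to WT ratios were smaller. *Col15a1* was counted at 50.4 CPM in KO1134, 75.8 CPM in KO1308 and 42.2 CPM in WT1101, with ratios of 1.19 (1.11 to 1.28) and 1.80 (1.67 to 1.93). *Col18a1* was counted at 7.65, 9.49 and 5.55 CPM, with ratios of 1.38 and 1.71.

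Type VI collagen, which forms beaded microfilaments around cells, had the largest class ratio in these sections. Its 6 genes summed to 121 CPM in KO1134, 161 CPM in KO1308 and 51.1 CPM in WT1101, which is 2.37 (2.25 to 2.51) and 3.16 (2.98 to 3.34) times WT. Its thymus sums were 109, 146 and 39.1 CPM, with ratios of 2.78 and 3.74. Of the 6 genes, 5 reached a ratio of 2 in both KO sections, and the sixth, *Col6a6*, was at 1.67 and 3.12.

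*Col6a1*, *Col6a2* and *Col6a3* encode the chains of the common type VI protein. *Col6a1* was counted at 29.7 CPM in KO1134, 52.1 CPM in KO1308 and 11.0 CPM in WT1101, *Col6a2* at 31.4, 33.4 and 14 CPM, and *Col6a3* at 38.7, 45.1 and 16.9 CPM. All 3 genes were lowest in WT1101. The chains did not move by 1 factor, since the number of *Col6a1* UMIs per *Col6a2* UMI was 0.947 (0.864 to 1.04) in KO1134, 1.56 (1.40 to 1.73) in KO1308 and 0.783 (0.690 to 0.889) in WT1101. *Col6a5*, one of the chains that can replace that of *Col6a3*, had the highest ratio of the named collagens in KO1134, with 8.03, 9.66 and 1.97 CPM and ratios of 4.07 (3.16 to 5.31) and 4.90 (3.73 to 6.47). *Col6a4* was counted at 5.78, 6.46 and 2.61 CPM, and its exons overlap antisense transcripts. Exons of *Col4a2*, *Col5a1*, *Col6a6* and *Col15a1* also overlap transcripts on the opposite strand. Those of *Col3a1*, *Col7a1* and *Col20a1* overlap transcripts on the same strand.

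**Figure D2:**
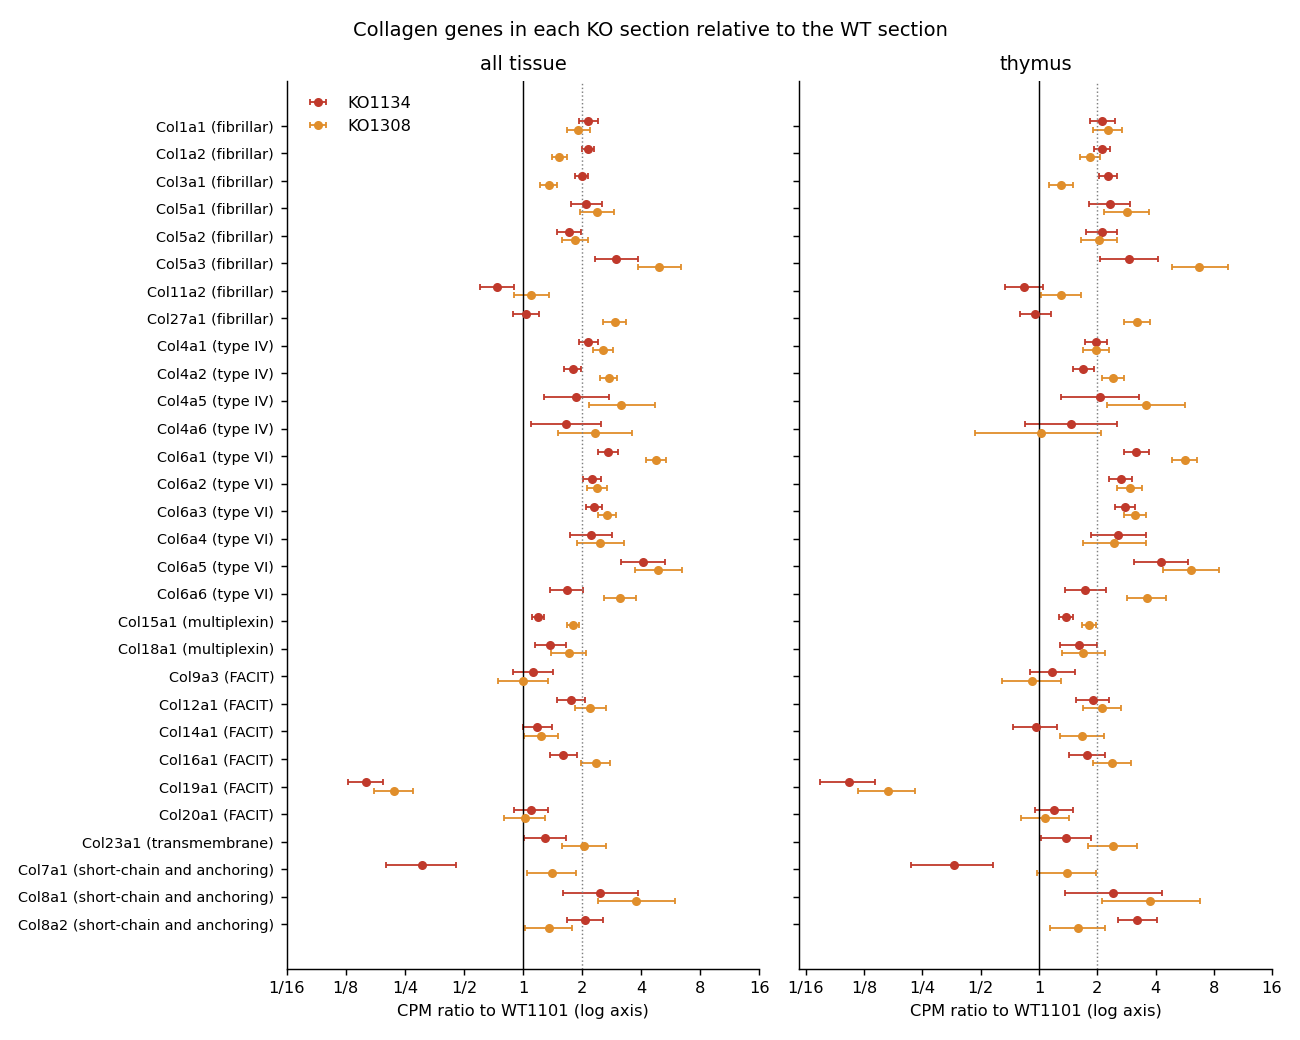
Ratio of CPM in each KO section to WT1101 (log axis) for the 30 collagen genes with at least 100 UMIs, in all kept tissue and in the thymus compartment; bars are 95% counting intervals, the solid line is a ratio of 1 and the dotted line a ratio of 2. Col6a1, Col6a5 and Col5a3 lie to the right in both sections, Col19a1 to the left (0.158 and 0.219), and Col27a1 and Col7a1 differ between the KO sections.

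*Col19a1* was the only one of the 41 collagens at 0.5 times WT or less in both KO sections. Of the 6 others not above WT in both, *Col13a1*, with 64 UMIs in all, was at 0.844 and 0.546 times WT with intervals that include 1, and *Col2a1*, *Col7a1*, *Col11a1*, *Col11a2* and *Col24a1* lay below WT in 1 KO section. *Col19a1* belongs to the FACIT collagens, which attach to fibres and carry interruptions in their triple helix, and it is known from basement membrane zones of muscle and from neurons. It was counted at 3.50 CPM in KO1134, 4.86 CPM in KO1308 and 22.1 CPM in WT1101, from 109, 85 and 898 UMIs. The ratio to WT was 0.158 (0.129 to 0.193) and 0.219 (0.174 to 0.274). In the thymus compartment it was counted at 2.05, 3.27 and 19.7 CPM and in other tissue at 1.88, 2.54 and 29.4 CPM. The WT level exceeded both KO levels in every compartment that the 3 sections share. In fat, where the WT section has no value, *Col19a1* reached 14.1 CPM in KO1134 and 17.9 CPM in KO1308.

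The other FACIT genes were close to WT or above it. *Col12a1*, found in tendon and stressed tissue, was counted at 11.3 CPM in KO1134, 14.1 CPM in KO1308 and 6.41 CPM in WT1101. *Col16a1* was counted at 11.3, 16.5 and 7.05 CPM. *Col14a1*, which decorates type I fibres, was counted at 8.55, 8.92 and 7.22 CPM, with ratios of 1.18 and 1.23. For *Col9a3* (4.50, 4.001 and 3.99 CPM) and *Col20a1* (6.14, 5.72 and 5.59 CPM) all 4 intervals of the ratio included 1. Exons of *Col9a3* overlap those of *Tcfl5* on the opposite strand. Since *Col19a1* counted for so much of the class in WT1101, the FACIT sum of 48.6, 57.0 and 53.7 CPM hid these opposite directions.

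The short-chain, anchoring and transmembrane collagens were counted at low levels. *Col8a1*, a short-chain collagen of vessel walls, was at 2.06 CPM in KO1134, 3.14 CPM in KO1308 and 0.838 CPM in WT1101, and *Col8a2* at 7.45, 4.86 and 3.60 CPM. Restricted to the thymus, *Col8a2* was at 10.5, 5.16 and 3.25 CPM. *Col7a1*, the anchoring fibril collagen below stratified epithelium, separated the KO sections with 0.996, 4.57 and 3.25 CPM, which is 0.306 (0.200 to 0.456) and 1.41 (1.05 to 1.87) times WT. *Col23a1*, a transmembrane collagen, was at 4.14, 6.57 and 3.20 CPM.

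The position of the collagens within the tissue also differed between the sections. In WT1101, fibrillar collagens were concentrated at the rim, with 232 CPM there and 78.8 CPM in the thymus compartment, a ratio of 2.94 (2.72 to 3.18). In KO1134 the rim had 223 CPM against 150 CPM, a ratio of 1.49 (1.34 to 1.66), and in KO1308 it had 174 CPM against 160 CPM, a ratio of 1.09 (0.969 to 1.23). The mean over KO was 1.29 ± 0.283 (SD, n = 2). It became 1.02 with bins of 50 µm and 1.07 with bins of at least 100 genes, where KO1308 was at 0.815 and 0.805. With the rim assigned before fat and the B-cell zone it became 1.55, so its size depends on what is counted as rim. At the main setting, the fibrillar sum in the KO rims was not higher than in the WT rim (0.964 and 0.751 times), while it was higher in the thymus. Without *Col1a1*, *Col1a2* and *Col3a1* the direction in the rim turned, to 1.25 (0.952 to 1.62) and 1.82 (1.45 to 2.29) times WT.

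The same was seen with distance from the edge in bins outside fat and the B-cell zone, measured to the centre of the nearest bin off the tissue. The first step therefore holds the outermost layer of bins, and the second layer of the rim falls in the second step. In WT1101 the fibrillar level was 328 CPM within 50 µm of the edge, 136 CPM from 50 to 100 µm, 63.2 CPM from 100 to 200 µm and 60.9 CPM from 200 to 400 µm. In KO1134 it was 224, 211, 125 and 114 CPM over the same steps. In KO1308 it was 172, 165, 161 and 179 CPM, with no step down from the edge. Beyond 400 µm the values were 191, 190 and 109 CPM. Among kept bins, the WT section therefore had a narrow outer band, KO1134 a broader and lower one, and KO1308 none. The rim of KO1308 was shallow, with 682 UMIs per bin against 1836 in KO1134 and 2109 in WT1101. Outside kept bins lay 1096 fibrillar UMIs of KO1308, against 42 of KO1134 and 153 of WT1101. Whether they belong to an outer band was not tested.

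**Figure D3:**
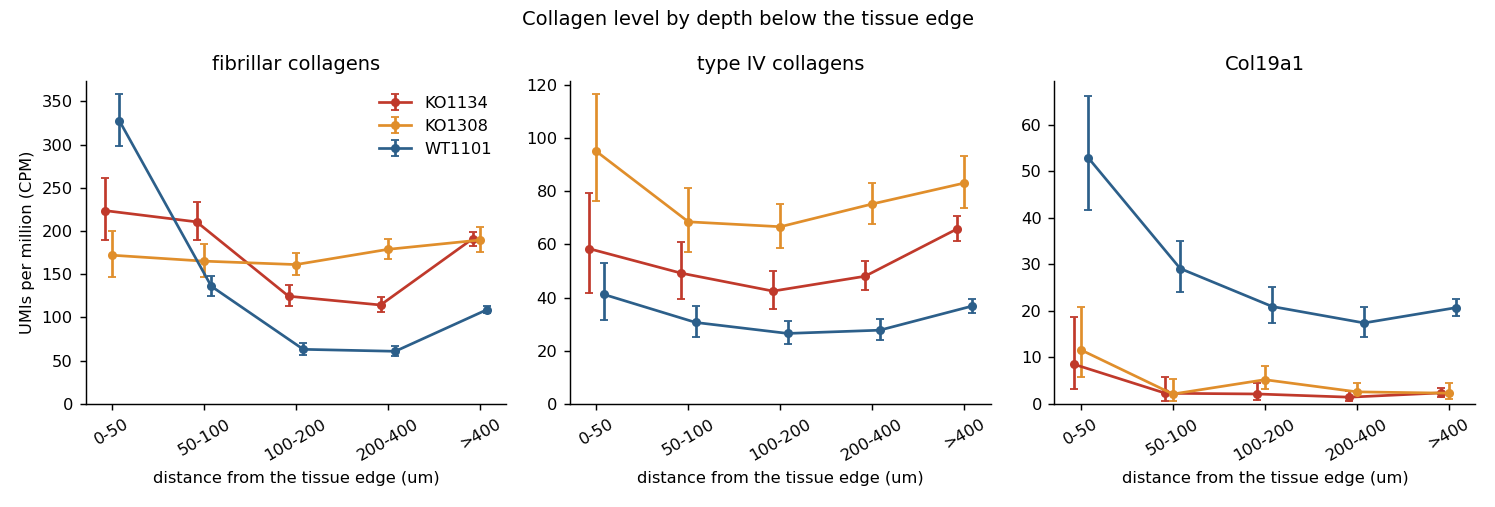
CPM (linear axis) of fibrillar collagens, type IV collagens and Col19a1 in 5 steps of distance from the tissue edge, in bins outside fat and the B-cell zone; points are sums over bins and bars are 95% counting intervals. In WT1101 fibrillar collagens drop from 328 to 60.9 CPM and Col19a1 from 52.9 to 17.4 CPM between the first and the fourth step, whereas type IV collagens stay within 26.5 to 41.2 CPM.

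The band in WT1101 was not even around the organ. Divided into 4 sides about the middle of the tissue, the WT rim had 397 CPM of fibrillar collagen at the upper right, 217 at the upper left, 190 at the lower right and 151 at the lower left, each above the 78.8 CPM of its thymus compartment. The 4 sides of KO1134 ranged from 46.7 to 369 CPM, the lowest from 11 UMIs, and those of KO1308 from 122 to 215 CPM. The outlines of KO1308 and WT1101 are cut straight where the captured area ends. Without the 18, 157 and 187 rim bins of KO1134, KO1308 and WT1101 at the end of that area, a choice made after seeing the data, the rim to thymus ratios were 1.52, 1.13 and 3.02.

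The type I and III genes carried the WT band. *Col1a1* was at 33.7 CPM in the WT rim and 8.81 CPM in the WT thymus, a ratio of 3.82 (3.08 to 4.73), and *Col3a1* at 71.2 and 18.6 CPM, a ratio of 3.83 (3.31 to 4.43). Without *Col1a1*, *Col1a2* and *Col3a1* the WT ratio was 1.48 (1.24 to 1.75). *Col14a1* showed the steepest rim among the FACIT genes of WT1101, at 24.9 CPM against 4.89 CPM in the thymus, and its rim level was 0.478 and 0.372 times WT in KO1134 and KO1308.

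Type IV collagens were spread more evenly. Their rim to thymus ratio was 1.09 (0.875 to 1.34) in KO1134, 1.32 (1.11 to 1.56) in KO1308 and 1.28 (1.06 to 1.53) in WT1101, with a KO mean of 1.21 ± 0.162 (SD, n = 2). The mean became 0.988 when bins with 100 genes were admitted and 1.84 when the rim was assigned before fat and the B-cell zone, so its direction depends on what is counted as rim.

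Of 41 collagens, 2 were at least 2-fold higher in the rim than in the thymus in all 3 sections, *Col19a1* and *Col4a6*, against 0.215% of 20043 genes. *Col19a1* had 5.36 against 2.05 CPM in KO1134, 7.22 against 3.27 CPM in KO1308 and 40.5 against 19.7 CPM in WT1101, and the KO rim values rest on 9 and 14 UMIs. Comparing each KO rim with that of WT1101, 2 of 23 collagens were at least 2-fold higher in both, *Col6a1* and *Col6a5*, against 8.15% of 13733 genes, so the share of collagens was close to that of all genes. Above WT in both were 12 of 23, against 40.2%. At least 2-fold lower in both were 2 of 23 (8.70%), *Col14a1* and *Col19a1*, against 1.67% of all genes. *Col6a1* was at 25.03, 50.01 and 12.05 CPM in the rims of KO1134, KO1308 and WT1101. *Col6a5* had 1 UMI in the WT rim, and its ratio of 30.5 in KO1134 has an interval of 4.64 to 1289.

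Marker genes of other cells also differed between the rims. The 6 fibroblast markers had a rim to thymus ratio of 1.19 in KO1134, 1.09 in KO1308 and 2.35 in WT1101, in the same order as the fibrillar collagens. Mesothelial markers (3 genes) summed to 5.36 CPM in the rim of KO1134, 24.7 CPM in KO1308 and 70.4 CPM in WT1101. In the rim of KO1308 nearly all of this was *Msln*, at 24.2 CPM, against 34.2 CPM in WT1101. *Upk3b* was at 0.516 CPM there, against 32.6 CPM in WT1101. Skeletal muscle markers summed to 482 CPM in the rim of KO1134, and cardiac muscle markers to 302 CPM in that of KO1308. Without muscle-rich bins, a choice made after seeing the data, the KO mean of the fibrillar rim to thymus ratio was 1.26. The part of fibroblasts and mesothelium was not tested.

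In the thymus compartment, 13 of 38 collagens (34.2%) had a ratio of at least 2 in both KO sections, against 12.8% of 19738 genes. Besides *Col5a1*, *Col5a3*, *Col6a1* to *Col6a5*, *Col8a1*, *Col9a1* and *Col9a2*, they were *Col1a1*, *Col4a5* and *Col5a2*. In other tissue 1 of 26 collagens did so, *Col8a1*, against 2.75% of 13626 genes, and 2 of 26 (7.69%) were at least 2-fold lower in both, *Col11a2* and *Col19a1*, against 2.03%. The fibrillar sums there were 275, 287 and 317 CPM. Fibrillar collagen was thus higher in the thymus compartment of both KO sections. It was not higher in their other tissue, where the ratios were 0.867 (0.767 to 0.978) and 0.903 (0.8004 to 1.02). Type VI collagen was higher there too, at 1.14 (1.00 to 1.30) and 1.28 (1.13 to 1.45) times WT. The cutoff between thymus and other tissue was relative to each section. Other tissue of WT1101 held 593 CPM of the thymus genes, against 783 CPM in the thymus compartment of KO1134. The contrast between these compartments may therefore set unlike tissue side by side.

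**Figure D4:**
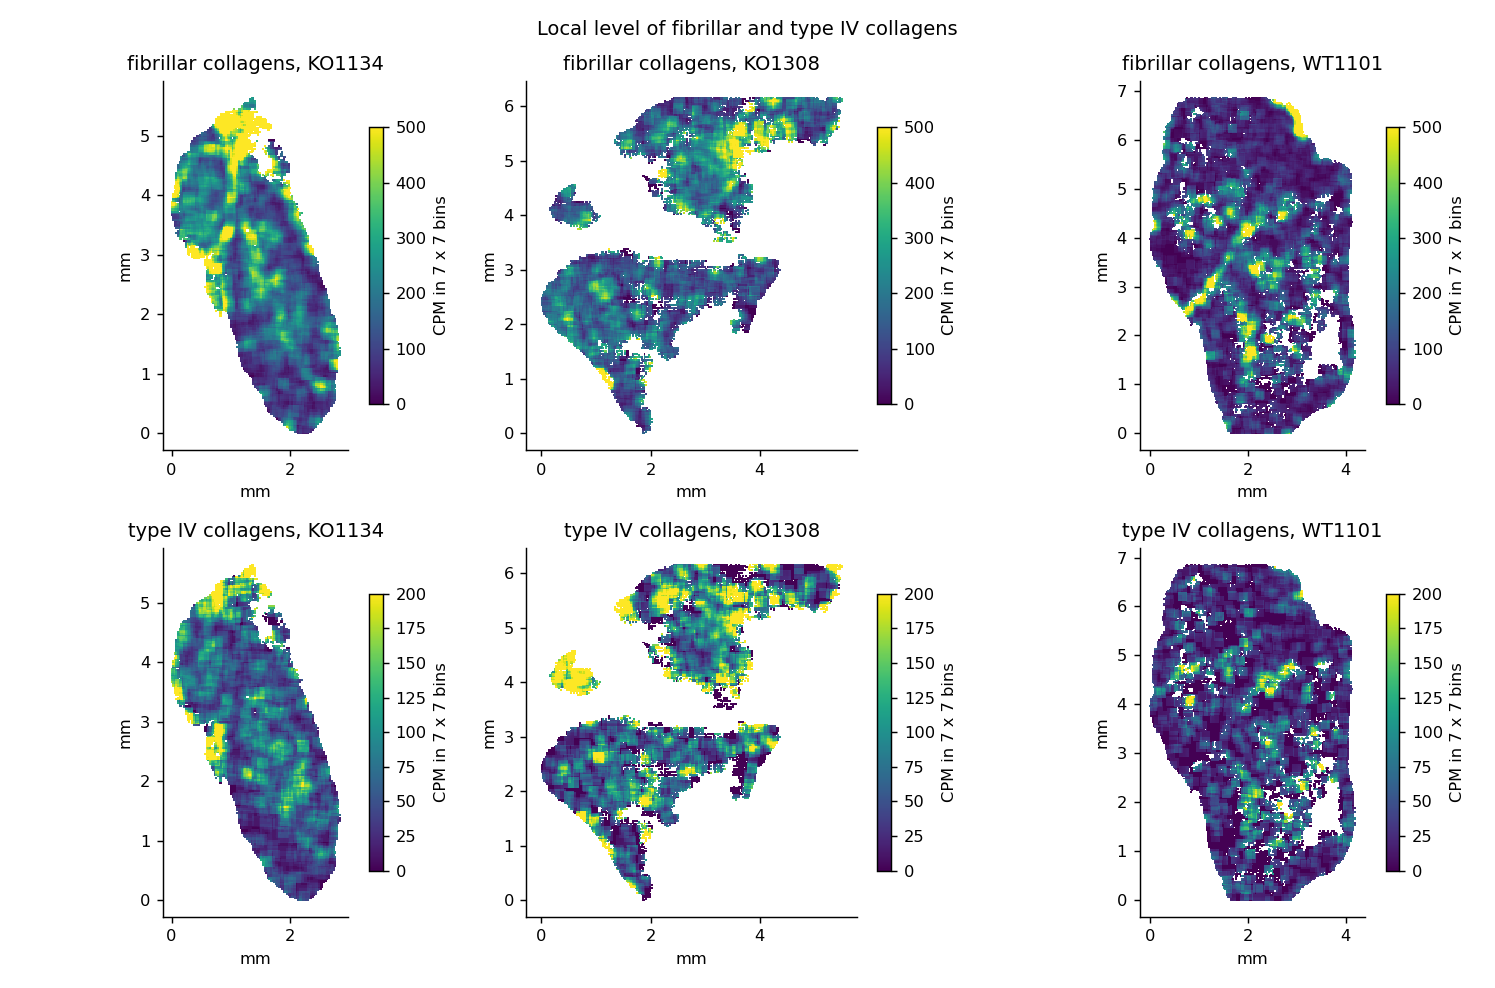
Maps of each section coloured by the CPM of fibrillar (top) and type IV (bottom) collagens in the 7 × 7 bins around each bin, with axes in mm and colours capped at 500 and 200 CPM. In WT1101 high fibrillar values lie in patches at the edge and in spots within a dark field, with squares of 14 × 14 bins between 5.97 and 727 CPM, against 72.9 to 766 CPM in KO1134 and 83.0 to 480 CPM in KO1308.

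Local values spanned a wide range. Over squares of 14 × 14 bins with at least 98 tissue bins, fibrillar collagen ran from 72.9 to 766 CPM with a median of 202 CPM in KO1134 (61 squares), from 83.0 to 480 CPM with a median of 178 CPM in KO1308 (82 squares), and from 5.97 to 727 CPM with a median of 86.0 CPM in WT1101 (148 squares). The tenth percentile of WT1101 was 39.4 CPM, against 99.6 and 102 CPM in the KO sections. The WT section thus had squares nearly free of fibrillar transcripts that the KO sections lacked, while its highest squares were as high as theirs.

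Across these squares, fibrillar and type IV collagens had a Spearman's rho of 0.536 in KO1134, 0.393 in KO1308 and 0.556 in WT1101. Squares share a library and differ in depth, so this is a description. With 6 fibroblast markers (*Dcn*, *Lum*, *Pdgfra*, *Dpt*, *Gsn* and *Serping1*) the fibrillar sum had rho of 0.548, 0.417 and 0.832, and with 6 endothelial markers (*Pecam1*, *Cdh5*, *Kdr*, *Egfl7*, *Emcn* and *Plvap*) the type IV sum had rho of 0.565, 0.511 and 0.345. The crossed pairs had rho of 0.573, 0.442 and 0.571 for type IV and fibroblast markers and of 0.558, 0.292 and 0.385 for fibrillar collagens and endothelial markers. In KO1134 the fibrillar sum had its larger rho with adipocyte markers, 0.626. Type IV collagens had rho of 0.224, 0.140 and 0.522 with mural and smooth muscle markers and of 0.0419, 0.117 and 0.517 with epithelial markers. In WT1101 both exceeded the rho with endothelial markers. *Notch3* gave the most UMIs of the mural and smooth muscle list, with 99.3 of its 157 CPM in the thymus compartment of WT1101. That rho therefore rests largely on 1 gene.

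Fat of the KO sections had more type IV and fibrillar transcripts than their thymus. Type IV collagens were counted at 135 CPM in the fat of KO1134 and 235 CPM in that of KO1308, against 52.5 and 67.2 CPM in their thymus, ratios of 2.56 (2.27 to 2.89) and 3.50 (3.07 to 3.98). Fibrillar collagens were counted at 421 and 234 CPM, ratios of 2.81 and 1.47. Type VI collagens were at 208 CPM in the fat of KO1134 and 119 CPM in that of KO1308, ratios of 1.92 and 0.816, so the sections went in opposite directions. The median ratio of 35 collagens was 1.60 and 0.842, where that of all genes was 0.704 and 0.522. Of 35 collagens, 6 were at least 2-fold higher in fat than in thymus in both, *Col19a1*, *Col3a1*, *Col4a1*, *Col4a2*, *Col4a6* and *Col5a3*, against 5.58% of 18537 genes. *Col4a1* reached 60.4 CPM in the fat of KO1134 and 101 CPM in that of KO1308. Leaving fat out lowered the ratio of KO to WT over all tissue from 1.82 to 1.70 for fibrillar and from 2.31 to 2.02 for type IV collagens.

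The B-cell zone, present in the KO sections alone, had 226 CPM of fibrillar collagen in KO1134 and 307 CPM in KO1308, which is 1.51 (1.41 to 1.61) and 1.93 (1.70 to 2.18) times their thymus. Type IV was at 63.1 and 120 CPM. Type VI went in opposite directions, at 0.813 (0.732 to 0.900) times thymus in KO1134 and 1.60 (1.39 to 1.84) in KO1308. Of 38 collagens, 1 was at least 2-fold higher than in thymus in both, *Col22a1* with 64 UMIs in all, against 2.04% of 18614 genes. Fibroblast markers summed to 504 CPM in the zone of KO1134 and 850 CPM in that of KO1308.

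The balance of fibrillar to basement membrane collagen is a quotient of UMIs that does not use the total of a section. UMIs are not corrected for gene length or capture, so the quotient is compared between places and not read as an amount of protein. Over all tissue there were 3.05 (2.90 to 3.21) fibrillar UMIs per type IV UMI in KO1134, 2.06 (1.94 to 2.19) in KO1308 and 3.15 (2.96 to 3.35) in WT1101. The KO to WT quotient was 0.970 and 0.655, with a mean of 0.813 ± 0.223 (SD, n = 2), so KO1308 alone differed from WT1101. With *Col15a1* and *Col18a1* added to the basement membrane side the mean was 1.03, from 1.24 in KO1134 and 0.819 in KO1308, and the direction turned.

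By compartment, the quotient lay closer together in the thymus than in the rim. In the thymus it was 2.86 (2.66 to 3.07) in KO1134, 2.38 (2.19 to 2.59) in KO1308 and 2.71 (2.52 to 2.91) in WT1101, so that WT1101 lay between the KO sections. In the rim it was 3.91 (3.11 to 4.94), 1.97 (1.63 to 2.38) and 6.23 (5.19 to 7.52). In fat it was 3.13 (2.78 to 3.53) in KO1134 and 0.997 (0.853 to 1.17) in KO1308, so the fat of KO1308 gave as many type IV as fibrillar UMIs.

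**Figure D5:**
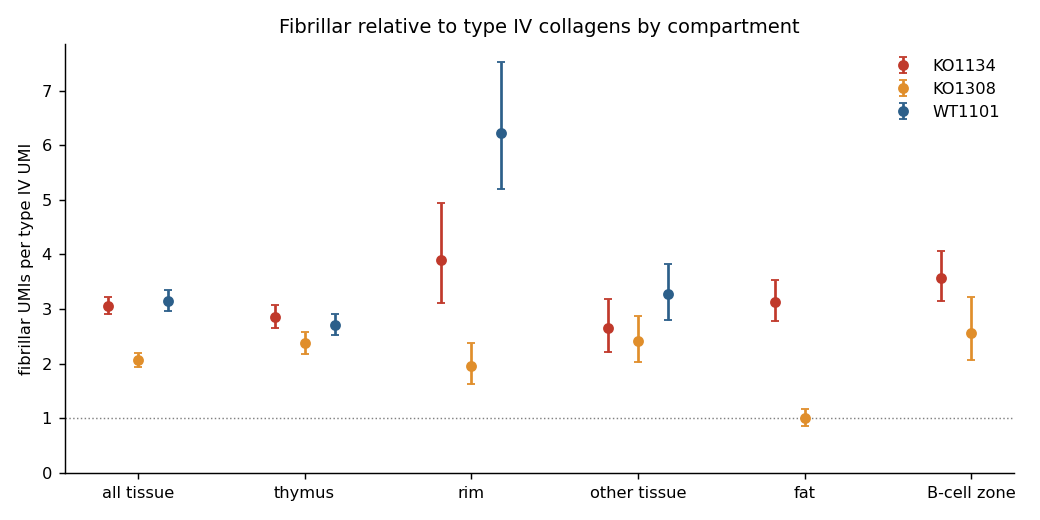
Fibrillar UMIs per type IV UMI (linear axis from 0) in all tissue and each compartment of KO1134, KO1308 and WT1101; bars are 95% counting intervals, the dotted line is a quotient of 1, and WT1101 has no value for fat and the B-cell zone. The thymus values lie between 2.38 and 2.86, and the ends of the range are the rim of WT1101 (6.23) and the fat of KO1308 (0.997).

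Most cell type marker lists were higher in both KO sections, not only those of fibroblasts and endothelium. Epithelial markers were at 1.35 and 2.05 times WT, macrophage markers at 1.77 and 1.51 and plasma cell markers at 2.37 and 4.40. Schwann markers were at 1.08 and 1.01, mesothelial markers at 0.546 and 2.78 and the thymus genes at 0.310 and 0.686. The mesothelial value of KO1308 rests on *Msln*, at 5.32 times WT, while *Upk3b* was at 0.224 and *Lrrn4* at 0.596. In the thymus compartment, endothelial markers were at 0.944 and 1.27 times WT. The 6 fibroblast markers summed to 681 CPM in KO1134, 1025 CPM in KO1308 and 305 CPM in WT1101, ratios of 2.24 and 3.36, which exceed the fibrillar ratios. There were 0.289 (0.281 to 0.297) fibrillar UMIs per fibroblast marker UMI in KO1134, 0.182 (0.175 to 0.189) in KO1308 and 0.346 (0.334 to 0.358) in WT1101. Set against this marker list, fibrillar collagen was therefore lower in the KO sections, also without *Gsn*, which gave most of its UMIs (0.724, 0.624 and 1.03, a choice made after seeing the data). Type VI collagen stayed close to the list, at 0.178, 0.157 and 0.168 UMIs per fibroblast marker UMI. The 6 endothelial markers summed to 169, 215 and 141 CPM, and type IV collagen per endothelial marker UMI was 0.381 (0.362 to 0.401), 0.421 (0.397 to 0.447) and 0.238 (0.224 to 0.252). This order rests on *Pecam1*, which was at 0.778 and 0.965 times WT while the other 5 markers were higher in both KO sections. Without *Pecam1*, a choice made after seeing the data, the values were 0.727 (0.686 to 0.770), 0.786 (0.736 to 0.840) and 0.896 (0.832 to 0.965), lower in both KO sections, so that no direction can be given. Whether these markers or the collagens account for the differences was not tested.

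The genes that make, process and bind collagens were counted from 6 lists, against the same 12.8% of all genes at least 2-fold higher in both KO sections. Of 16 modifying enzymes and chaperones, 2 were, *Crtap* and *Colgalt2*, a share close to that of all genes. Above WT in both lay 14 of the 16, against 45.0% of all genes. *P4hb*, a subunit of prolyl 4-hydroxylase, was counted at 142 CPM in KO1134, 193 CPM in KO1308 and 117 CPM in WT1101, *Ppib*, a folding factor, at 74.4, 63.4 and 59.5 CPM, and *Colgalt1*, which adds galactose to collagen, at 42.1, 32.3 and 21.3 CPM. The ratios ran from *P4ha1*, at 0.865 and 1.23 times WT, to *Colgalt2*, at 2.41 and 3.75. Of 13 genes of propeptide processing and cross-linking, 3 were, *Pcolce*, *Lox* and *Loxl1*. *Lox*, the oxidase that cross-links fibrillar collagen, was counted at 7.90, 9.72 and 3.40 CPM, whereas *Loxl3* (28.0, 23.0 and 24.6 CPM) and *Adamts3* (16.3, 22.6 and 18.5 CPM), the genes of this list with most UMIs, lay above WT in 1 KO section each.

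Of 12 genes of collagen breakdown, 3 were at least 2-fold higher in both, *Mmp14*, *Mrc2* and *Fap*. At least 2-fold lower in both was 1, *Mmp8*, from 2, 6 and 34 UMIs, against 2.25% of all genes. *Mmp14*, a collagenase of the cell surface, was counted at 31.0 CPM in KO1134, 35.0 CPM in KO1308 and 9.66 CPM in WT1101. Of the genes with most UMIs, *Timp2* and *Timp3*, inhibitors of these enzymes, were at 1.35 and 1.42 and at 1.62 and 1.49 times WT, and *Mmp2* at 1.29 and 0.874. Of the 8 receptors with 30 UMIs, 2 were, *Itga1* and *Itga2*, which encode chains of collagen-binding integrins, with *Itga1* at 37.3, 33.3 and 15.7 CPM. *Itgb1*, their common partner chain, was counted at 102, 133 and 80.9 CPM, the receptor kinase *Ddr1* at 27.2, 48.5 and 24.5 CPM, and the further collagen-binding chains *Itga10* and *Itga11* at 0.557 and 1.04 and at 1.28 and 1.80 times WT. In the 6 lists, genes given only as at least 2-fold higher or lower were named after their values were seen.

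The lists of matrix partners had the most genes past a ratio of 2. Of 12 partners of fibrillar collagen, 7 were at least 2-fold higher in both KO sections, *Dcn*, *Lum*, *Bgn*, *Postn*, *Fbn1*, *Thbs2* and *Dpt*, of which *Dcn*, *Lum* and *Dpt* also serve as fibroblast markers. *Postn*, a matrix protein that binds type I collagen, had the largest mean ratio of the list, with 45.3 CPM in KO1134, 75.3 CPM in KO1308 and 15.0 CPM in WT1101. *Dcn*, which coats fibres, was counted at 152, 173 and 64.2 CPM, *Sparc* at 85.2, 89.9 and 47.0 CPM and *Bgn* at 78.9, 80.5 and 32.9 CPM, while *Fmod* separated the KO sections at 3.91 and 0.754 times WT. Of 15 basement membrane partners all 15 lay above WT in both, against 45.0% of all genes, and 6 were at least 2-fold higher, *Lama1*, *Lama4*, *Lamb2*, *Nid1*, *Nid2* and *Pxdn*. *Pxdn* was counted at 7.81, 12.2 and 2.98 CPM, and the laminin chains *Lamb3* at 55.9, 79.4 and 40.9 CPM and *Lamb1* at 36.3, 53.4 and 20.0 CPM.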

How the data were processed

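Spatial transcriptomes of thymus sections from 2 KO mice and 1 WT mouse were used. Reads were processed with BSTMatrix and then aligned with STAR, per the methods. The matrices that the authors deposited hold UMI counts of each gene at each spot, not normalised. GRCm38 is the build named in the submitters' processing notes. Spot names are grid positions that recur between slides. Spots were summed in bins of 27 µm, and bins with at least 300 genes and at most 30% mitochondrial UMIs in connected groups of at least 200 bins were kept. Folds, which the authors removed, were kept, and their annotation was not used here.

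A bin was assigned to fat or the B-cell zone by the largest of 3 marker sums (*Adipoq*, *Plin1*, *Cidec*, *Cfd* and *Retn* for fat, *Cd79a*, *Cd79b* and *Ms4a1* for B cells, and the 6 thymus genes) in the 7 × 7 bins around it, then to the rim when in the 2 outermost layers, then to the thymus when the thymus genes reached 50% of their share in the section. Intervals at 95% are exact Poisson for CPM and exact conditional binomial for ratios and quotients. Genes needed 30 UMIs over the 3 sections for a ratio and members 100 UMIs to be named, and genes of the pathway lists were named when among the 3 with most UMIs or at either end of the ratios. Likeness used genes with at least 300 UMIs. No test between genotypes was made. Sections were assigned to mice by their labels alone.

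Alternatives changed bin width, gene minimum, denominator, tissue, members, rim, bin weights and UMI minimum, or left out a section. The computations were tested on simulated data. The members and lists were chosen with earlier results of these data known. Software versions were Python 3.11.15, scipy 1.17.1, numpy 2.4.6, matplotlib 3.10.9 and pandas 2.3.3.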

Additional observations from a re-analysis of the deposited data

How the results depend on the processing

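Of 81 values recomputed under alternatives, 70 stayed within the spread between the KO sections, or within 1.5 times for counts, and on the same side of 1. For ratios, leaving out a KO section cannot move the mean past that spread, so those values among the 70 say nothing about stability. The fibrillar ratio of KO to WT, 1.82, became 1.89 with bins of at least 100 genes, 1.70 without fat, 1.96 in the thymus alone and 1.61 without fat and the B-cell zone, the last a choice made after seeing the data. The type IV rim to thymus ratio of KO, 1.21, became 1.01 with *Col15a1* and *Col18a1*, 1.01 with a rim of 4 layers, 1.84 with the rim assigned before fat and the B-cell zone, and 0.988 with bins of at least 100 genes. The KO to WT quotient of fibrillar per type IV UMIs, 0.813, became 1.03 with *Col15a1* and *Col18a1*, and that of type IV per endothelial marker UMIs, 1.69, became 0.844 without *Pecam1*. Apart from *Pecam1*, whose own ratio was below 1, these causes were not tested. Leaving out each KO section in turn gave 15 to 22 collagens at least 2-fold higher than WT, against 11 with both, since fewer sections have to agree in the call. It gave 1.77 to 1.87 for the fibrillar and 1.92 to 2.70 for the type IV ratio.

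No paired analysis was possible because there is 1 WT section and no result comes from a test. With 1 WT section, the spread between WT mice is unknown. Depth limits single genes in the rim, where most collagens have few UMIs, and intervals leave out any error between sections.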

Other observations

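Fat of the KO sections was divided by the brown fat genes *Ucp1*, *Cidea* and *Cox8b*, a choice made after seeing the data. Where these exceeded the general adipocyte genes in the surrounding bins, there were 1.94 (95% counting interval 1.54 to 2.45) fibrillar UMIs per type IV UMI in KO1134 and 0.693 (0.541 to 0.884) in KO1308. In the remaining fat there were 3.67 (3.19 to 4.23) and 1.31 (1.06 to 1.61). In both sections the quotient was lower in brown-rich fat. Fibrillar collagens were at 247 CPM in the brown-rich and 507 CPM in the remaining fat of KO1134, and at 165 and 303 CPM in KO1308, whereas type IV collagens were at 127 and 138 CPM and at 238 and 232 CPM. The KO sections still differed from each other in either kind of fat.

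Fibrillar UMIs were present in 31.7% of kept bins of KO1134, 16.4% of KO1308 and 11.2% of WT1101. Thinned to 500 UMIs per bin, which left out 177, 2998 and 2765 shallower bins, the shares were 10.1%, 8.53% and 5.07%. Type IV UMIs were present in 13.8%, 8.38% and 4.48% of bins, and in 3.47%, 4.27% and 1.71% after thinning. The order of the KO sections for type IV differed between these shares, and WT1101 was lowest both ways. Thinning and leaving out shallow bins were done together and cannot be told apart. In spots outside kept bins, fibrillar collagens were at 366 CPM in KO1134, 305 CPM in KO1308 and 152 CPM in WT1101.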
